A study of Mus musculus with 15 samples.

Results

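DNA damage by an alkylating carcinogen is met by repair enzymes and by the p53 pathway, and 8 genes of these routes were followed by their symbols in count tables from mouse distal colon: the alkylation repair genes Mgmt, Mpg and Msh6 and the p53 response genes Trp53, Mdm2, Cdkn1a, Ccng1 and Bax. Of these, 7 had a row in all 3 tables, among 12897 genes in any table, and Mgmt was not analysed here. The tables hold genes that reached 5 CPM, a measure explained with the levels, in at least 3 libraries, so all 7 had passed this filter. RNA-seq had been done on rRNA-depleted, stranded libraries of pairs of 50 bp reads from 15 mice of strain C57BL/6, 3 in each of 5 groups. Wildtype mice (B6) made up 2 untreated groups, called control set 1 and control set 2 after their titles, and a group at D26 of AOM/DSS treatment, and Irf1-/- mutants, which lack the interferon-responsive transcription factor IRF1 in all cells, made up an untreated group and a group at D26. Treated mice had received azoxymethane (AOM) once, at 7 mg/kg on D1, and dextran sodium sulfate (DSS), which injures the colonic epithelium, as a 2% solution to drink on D8 to D11, so the colons were taken days after the last exposure to either agent. Neither age nor sex is given in the labels. Every mouse gave 1 library of bulk tissue, in which fewer cells of a type and less RNA per cell cannot be told apart.

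AOM is activated in the body to a methylating agent. Mgmt removes methyl groups from the O6 position of guanine directly, Mpg is the glycosylase that cuts out N-methylated purines at the start of base excision repair, and Msh6 recognises mispaired bases in mismatch repair, including those opposite alkylated guanine. Trp53 encodes p53, which is regulated mostly at the level of protein stability: Mdm2 is the ubiquitin ligase that targets p53 for degradation and is itself a p53 target, so both form a feedback loop. Cdkn1a (p21) blocks cyclin-dependent kinases, Ccng1 (cyclin G1) feeds back on p53 through Mdm2, and Bax permeabilises the outer mitochondrial membrane in apoptosis. In intestinal crypts Cdkn1a and Mdm2 are known to be induced within hours of DNA damage.

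p53 binds response elements made of paired decamer half-sites, and windows around RefSeq transcription starts (250 bases before to 50 after, GRCm38.p6) were searched on both strands for the p53 half-site. It was found in 5 of the 7 genes analysed, against 8.36% of 32851 windows of all genes. The part of these windows that lies before the start is shown for those 5 genes, to let the elements be read beside the transcript levels, with the half-sites in capitals. They lie at chr17:29090729-29090978 (plus strand), chr10:117710759-117711008 (minus strand), chr11:40755287-40755536 (minus strand), chr7:45466899-45467148 (minus strand) and chr11:69580109-69580358 (plus strand), and each is written 5′ to 3′ on the strand of its gene.
Cdkn1a: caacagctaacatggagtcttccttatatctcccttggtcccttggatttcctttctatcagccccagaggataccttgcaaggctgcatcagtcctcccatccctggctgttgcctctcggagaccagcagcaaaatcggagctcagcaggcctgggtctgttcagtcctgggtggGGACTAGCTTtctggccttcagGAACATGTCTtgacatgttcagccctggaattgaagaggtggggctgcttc
Mdm2: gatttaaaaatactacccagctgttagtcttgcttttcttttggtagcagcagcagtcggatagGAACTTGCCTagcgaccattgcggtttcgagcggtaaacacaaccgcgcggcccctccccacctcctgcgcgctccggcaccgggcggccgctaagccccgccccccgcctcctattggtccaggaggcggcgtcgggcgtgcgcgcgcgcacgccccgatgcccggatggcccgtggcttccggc
Ccng1: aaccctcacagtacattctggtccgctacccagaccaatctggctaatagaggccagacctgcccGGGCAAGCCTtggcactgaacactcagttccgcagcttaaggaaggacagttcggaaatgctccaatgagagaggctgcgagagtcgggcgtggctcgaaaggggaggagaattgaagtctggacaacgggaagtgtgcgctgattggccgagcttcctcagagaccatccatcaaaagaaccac
Bax: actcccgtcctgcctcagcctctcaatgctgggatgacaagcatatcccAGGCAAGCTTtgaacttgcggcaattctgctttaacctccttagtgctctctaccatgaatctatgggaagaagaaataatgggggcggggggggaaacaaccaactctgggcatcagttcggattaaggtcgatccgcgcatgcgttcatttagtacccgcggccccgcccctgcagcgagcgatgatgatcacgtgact
Trp53: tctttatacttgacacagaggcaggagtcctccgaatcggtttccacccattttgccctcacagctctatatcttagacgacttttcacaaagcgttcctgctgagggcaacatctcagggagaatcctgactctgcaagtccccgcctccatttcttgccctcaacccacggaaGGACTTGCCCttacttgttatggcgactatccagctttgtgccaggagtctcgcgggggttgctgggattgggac
The Cdkn1a window held 2 half-sites and the others 1 each. No half-site was found in the windows of Mpg and Msh6 or in a second Cdkn1a window. In a hand-written list of other p53 targets, 7 of 21 genes with a window held the half-site. Among the other lists the share ran from 0 of 15 mismatch repair genes to 2 of 6 leukocyte markers. Genes were counted if any of their windows held it, a unit unlike the share of windows of all genes. A match of letters is a description of the window and says nothing of binding, and known elements of these genes outside the window were not searched.

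Transcript levels are given as CPM, the share of a gene in the counted reads of a library, on its usual scale and after adjustment by edgeR's TMM method. Over all 15 libraries and per kilobase of the longest transcript, Ccng1 was the most abundant of the 7 genes at 32.2 ± 3.22 CPM per kb (mean ± SD, n = 15 libraries). Bax followed at 19.8 ± 1.51 CPM per kb, Mdm2 at 17.8 ± 1.30 CPM per kb and Cdkn1a at 16.0 ± 2.80 CPM per kb. The spreads of these 3 neighbours overlapped, and their order within each library was not tested. Msh6 stood at 11.5 ± 0.971 CPM per kb, Trp53 at 7.18 ± 0.896 CPM per kb and Mpg at 5.89 ± 0.567 CPM per kb. The spread over all libraries was small: the coefficient of variation of CPM had a median of 9.62% over the 7 genes and of 11.5% over all 12370 genes in all tables. It was largest for Cdkn1a, at 17.5%, and smallest for Mdm2, at 7.32%.

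**Figure D1:**
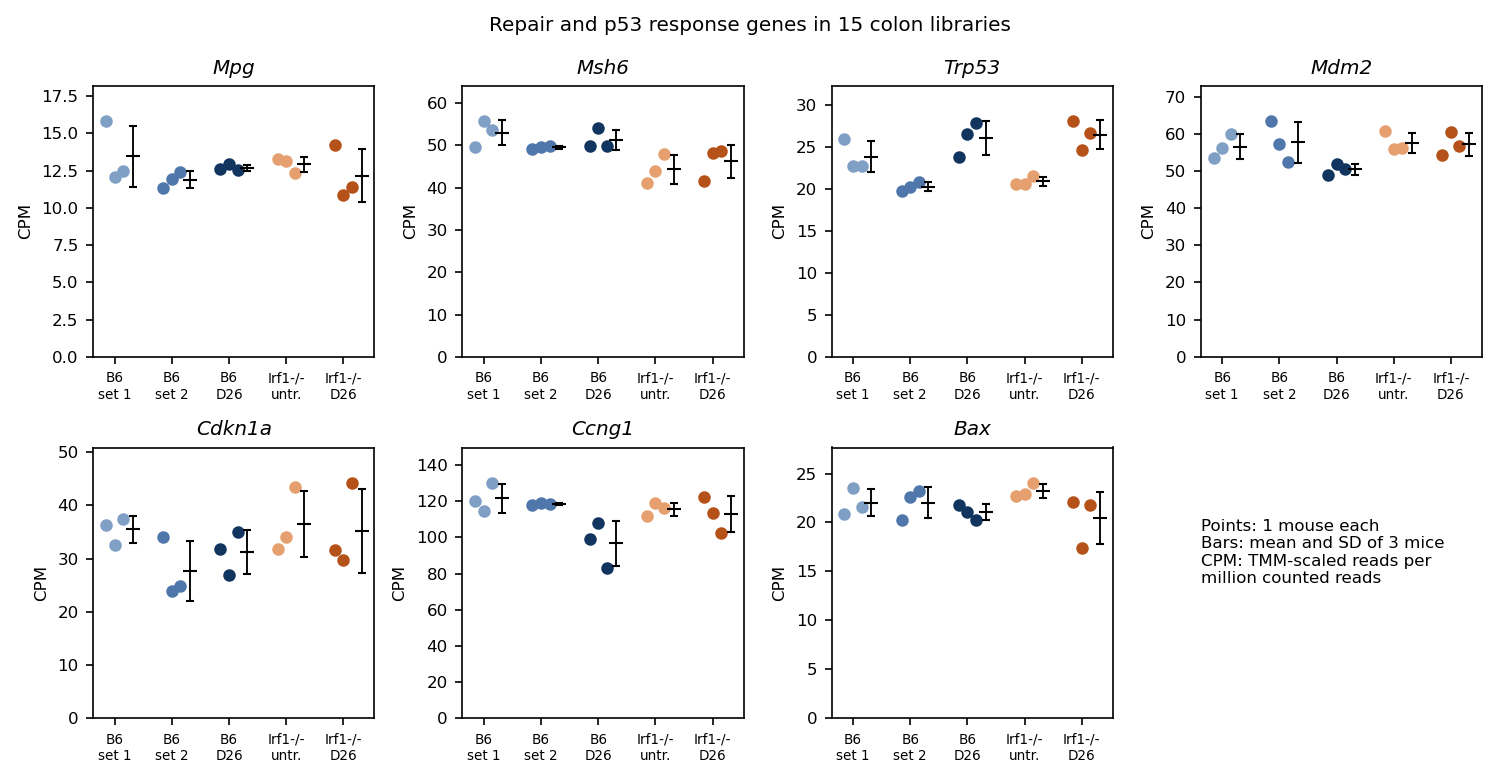
CPM (TMM-scaled, vertical axes from 0) of the 7 genes in each of the 15 libraries, 3 mice in each of 5 groups (untr., untreated), with mean and SD beside the points. Levels differ little between groups: Trp53 is lowest in control set 2 and untreated Irf1-/- mice (19.7 to 21.5 CPM) and Ccng1 lowest in treated B6 mice (83.3 to 108 CPM).

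The test was edgeR's quasi-likelihood fit over all genes, and a gene was called changed where the fold change (FC) reached 1.5 and p, adjusted after Benjamini and Hochberg, was below 0.01. None of the 7 genes was called in any of the 6 comparisons, 42 values in all, with FC between 0.779 and 1.32 and no adjusted p below 0.0791. The unadjusted p was under 0.05 in 7 of the 42 values: 2 between untreated genotypes (10.4% of all genes), 1 for treatment in B6 mice (29.5%), 1 for treatment in Irf1-/- mice (18.6%), 1 for the difference between the responses (16.9%), 0 between treated genotypes (22%) and 2 between the control sets (17.2%). Calls over all genes were also rare. The share was 0.405% of genes between untreated genotypes, 0.0475% for treatment in B6 mice, 0.252% for treatment in Irf1-/- mice, 0.016% for the difference between these responses, 0.385% between treated genotypes and 0.0644% between the control sets. A count of 0 among 7 genes does not set them apart from other genes. The 95% interval of the FC lay inside 1.5-fold either way in 38 of the 42 values. The exceptions were Cdkn1a in 3 comparisons and Ccng1 in the difference between the responses. For all genes, the interval lay inside this range in 90.4%, 72.7%, 84.4%, 62.4%, 74.3% and 85% of genes in the same 6 comparisons. DESeq2, edgeR's exact test and limma voom called 0 of the 7 genes as well.

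**Figure D2:**
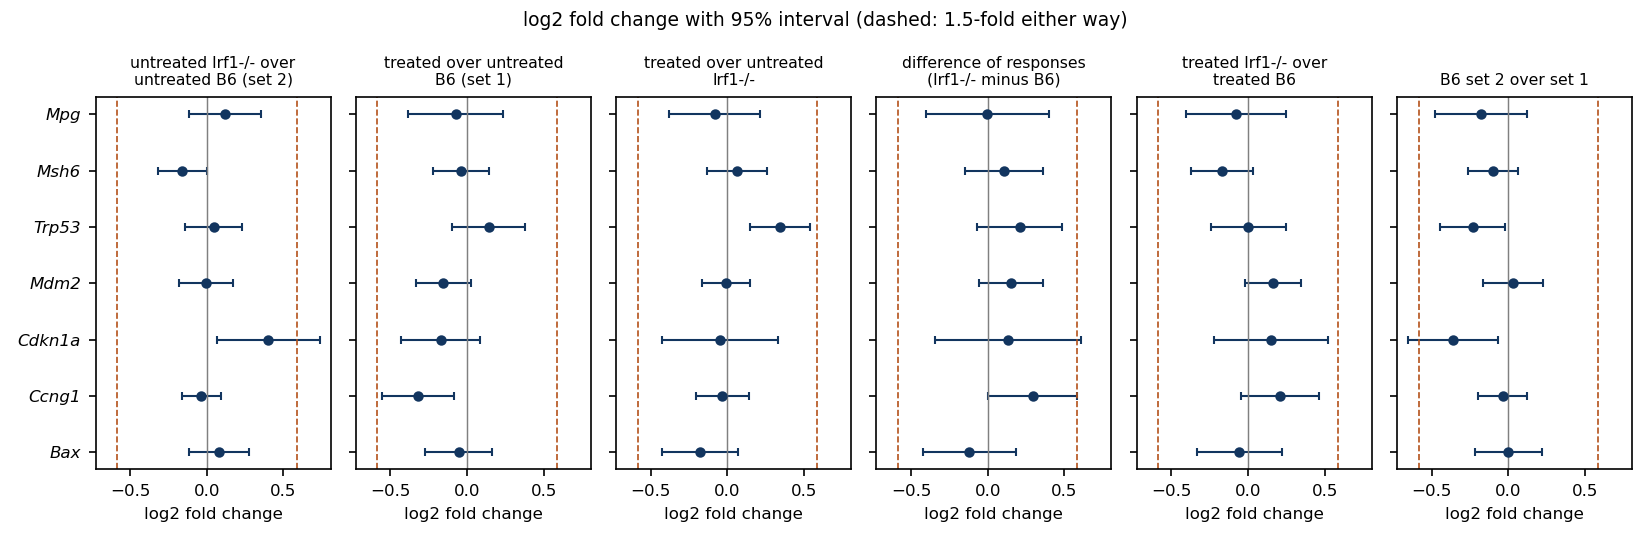
log2 fold change (horizontal axis) of the 7 genes in the 6 comparisons, points with 95% intervals from edgeR's quasi-likelihood test, and dashed lines at a 1.5-fold change either way. Most intervals span 0, and those that do not include Cdkn1a between untreated genotypes (0.40) and Trp53 in treated Irf1-/- mice (0.34).

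Mpg, the glycosylase, showed no difference that passed the test in any comparison. It was at 15.8, 12.1 and 12.5 CPM in control set 1, at 11.3, 11.95 and 12.4 in control set 2, and at 13.2, 13.2 and 12.3 in untreated Irf1-/- mice. After treatment it was at 12.6, 12.9 and 12.6 CPM in B6 mice and at 14.2, 10.9 and 11.4 in Irf1-/- mice. All groups overlapped except for a narrow gap: the lowest library of treated B6 mice lay just above the highest of control set 2. Treated over untreated, the value was -0.07 ± 0.14 (log2 FC ± SE) in B6 mice and -0.08 ± 0.13 in Irf1-/- mice, and the difference between these was -0.00 ± 0.19, with a 95% interval of -0.40 to 0.40. With the other control set the value in B6 mice was 0.11, and control set 1 held the highest library of all.

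Msh6 was the repair gene whose libraries did not overlap between genotypes. It was at 49.1, 49.7 and 49.8 CPM in control set 2 and at 41.1, 44.0 and 48.0 CPM in untreated Irf1-/- mice. Treated B6 mice had 49.9, 54.1 and 49.8 CPM and treated Irf1-/- mice 41.7, 48.3 and 48.6 CPM. In both states each Irf1-/- library was below each B6 library it was compared with, and control set 1, at 49.7, 55.7 and 53.6 CPM, was also above every Irf1-/- library. The differences were small and did not pass the test: -0.16 ± 0.07 between untreated genotypes (adjusted p = 0.473) and -0.17 ± 0.09 between treated ones (adjusted p = 0.302). Against control set 1 the untreated difference was -0.26 (adjusted p = 0.0803). Libraries lay entirely to 1 side in 15.4% of all genes between untreated genotypes and in 27.5% between treated ones. Of 15 markers of cycling cells, 2 were higher in untreated Irf1-/- mice than in control set 2 and the others lower. An unadjusted p under 0.05 was found for 4 of those lower (10.4% of all genes in either direction). Summed levels were 770 to 899 CPM in these Irf1-/- mice and 794 to 1018 CPM in control set 2. In control set 1, against which the Msh6 difference was larger, these markers summed to 584 to 881 CPM. The part of cycling cells in the Msh6 values was not tested. Treated over untreated, Msh6 was at -0.04 ± 0.08 in B6 and 0.06 ± 0.09 in Irf1-/- mice, with 95% intervals of -0.22 to 0.14 and -0.14 to 0.26.

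Other genes of these repair routes were read from hand-written lists. Of 20 tested genes of direct reversal and base excision repair, 0 were called in any comparison by edgeR's quasi-likelihood test, DESeq2, edgeR's exact test or limma voom. In treated B6 mice, 2 of them were higher and 0 lower at an unadjusted p under 0.05 (29.5% of all genes in either direction). The list median was 0.04 against 0.01 for all genes. Fen1, the flap endonuclease of long-patch repair, had the smallest p there, at 19.6 ± 3.95 CPM (SD, n = 3) against 14.1 ± 0.861 CPM in control set 1 (log2 FC 0.48, adjusted p = 0.0804). Control set 2 was at 19.7 ± 4.33 CPM, and against it the value was 0.01 (adjusted p = 0.969). In the mismatch repair list, edgeR's quasi-likelihood test and limma voom called 0 of 19 genes in any comparison, while DESeq2 and edgeR's exact test called 1, Exo1, between the control sets. Between untreated genotypes 2 of the 19 had positive values, with a median of -0.15 against 0.00 for all genes. An unadjusted p under 0.05 was found for 1 of the 19 (10.4% of all genes). Control set 2 was itself above control set 1 in 14 of the 19, with a median of 0.16. The gene with an unadjusted p under 0.05 was Exo1, the exonuclease that removes the mismatched strand, at 5.99 ± 0.632 CPM in untreated Irf1-/- mice and 8.42 ± 0.945 CPM in control set 2 (-0.49, adjusted p = 0.215). Its direction depended on the control mice: Exo1 was at 4.31 ± 0.918 CPM in control set 1, and against that set the value was 0.47. Between the control sets Exo1 differed by 0.97 ± 0.19 (adjusted p = 0.0539, or 0.00104 by DESeq2 and 0.000365 by edgeR's exact test). All 15 cycling markers were higher in control set 2, 12 of them with an unadjusted p under 0.05 (17.2% of all genes in either direction). The part of cycling cells in the Exo1 values was not tested.

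Trp53 mRNA had the smallest p of the 7 genes. It was at 20.6, 20.6 and 21.5 CPM in untreated Irf1-/- mice and at 28.0, 24.6 and 26.6 CPM in treated ones. Every treated library was above every untreated one, as in 25.1% of all genes in either direction. The difference was 0.34 ± 0.09 on the log2 scale, an FC of 1.27 with a 95% interval of 1.11 to 1.45 (unadjusted p = 0.00337, adjusted p = 0.0791, edgeR's quasi-likelihood test), so it did not pass the threshold and the interval held no 1.5-fold change. In treated B6 mice Trp53 was at 23.9, 26.5 and 27.9 CPM, nearly the level of treated Irf1-/- mice (0.00 ± 0.11 between them, 95% interval -0.24 to 0.25).

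Whether Trp53 mRNA also differed with treatment in B6 mice depended on the control mice. Control set 1 was at 26.0, 22.7 and 22.8 CPM, overlapping treated B6 mice (0.14 ± 0.10, adjusted p = 0.398). Control set 2 was at 19.7, 20.3 and 20.8 CPM, below every treated library of either genotype, and against it the value was 0.38 (adjusted p = 0.0373, FC under 1.5). The control sets themselves did not overlap and differed by -0.23 ± 0.09 (unadjusted p = 0.0338, adjusted p = 0.245), as did 21.3% of all genes by overlap. The difference between the responses of the genotypes was 0.21 ± 0.13 (adjusted p = 0.43) with control set 1 and -0.02 with control set 2. Leukocyte markers also differed between these groups. The summed level of the 7 of 9 markers with a row was 156 to 202 CPM in control set 2, 187 to 278 in control set 1 and 185 to 224 in untreated Irf1-/- mice, against 233 to 329 in treated B6 and 289 to 332 in treated Irf1-/- mice. In treated Irf1-/- mice all 7 were higher than in untreated ones, 4 of them past 1.5-fold with an adjusted p under 0.05. In treated B6 mice 6 were higher than in control set 1, 1 of them with an unadjusted p under 0.05 (29.5% of all genes in either direction). Between untreated genotypes 3 were higher in Irf1-/- mice, all with an unadjusted p under 0.05 (10.4% of all genes). Trp53 was at 0.04 there. The part of leukocytes in the Trp53 values was not tested.

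Mdm2, the negative regulator of p53, had the smallest spread over all libraries. It was at 53.4, 56.1 and 60.1 CPM in control set 1, at 63.4, 57.4 and 52.4 in control set 2, and at 60.7, 55.8 and 56.2 in untreated Irf1-/- mice. Treated Irf1-/- mice were in the same range at 54.3, 60.5 and 56.6 CPM (-0.01 ± 0.07). Treated B6 mice were lower, at 49.0, 51.8 and 50.5 CPM, below every other library. The value was -0.15 ± 0.08 against control set 1 (adjusted p = 0.221), and treated Irf1-/- mice were above treated B6 mice by 0.16 ± 0.08 (adjusted p = 0.266). Both gaps were free of overlap, as in 34.5% and 27.5% of all genes.

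Among other regulators of p53, 0 of 11 were called in treated B6 mice by edgeR's quasi-likelihood test, with a median of -0.11 against 0.01 for all genes, and 4 had an unadjusted p under 0.05 (29.5% of all genes), all with negative values. Atr, a kinase that senses stalled replication forks, was at 35.3 ± 5.35 CPM in treated B6 mice and 53.7 ± 4.75 CPM in control set 1 (-0.60 ± 0.12, adjusted p = 0.0255). It passed the fold threshold and missed only the limit on the adjusted p, and DESeq2 and edgeR's exact test called it. Treated Irf1-/- mice had 54.6 ± 8.36 CPM, higher than treated B6 mice by 0.62 (adjusted p = 0.0635), and the difference between the responses was 0.58 (adjusted p = 0.13). Mdm4, a partner of Mdm2 (-0.33, adjusted p = 0.0525), and Atm, the kinase activated by double-strand breaks (-0.38, adjusted p = 0.0656), had the next smallest p. In treated Irf1-/- mice 0 of 12 regulators had an unadjusted p under 0.05 (18.6% of all genes), and their median was 0.02.

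Treated B6 libraries differed from the rest in how counts followed the GC content of genes. Each library was described by the slope of its log2 levels, relative to the average library, on the GC content of genes. This was 0.136 to 0.285 per 10% GC in the 3 treated B6 libraries and -0.124 to 0.0316 in the other 12, so in B6 mice treatment and this slope cannot be told apart. Atr transcripts are 40.8% GC, against a median of 49.6% over all genes. After each library was corrected by a lowess curve on GC content, a correction chosen after seeing the data, the values in treated B6 mice became -0.34 for Atr, -0.16 for Mdm4 and -0.18 for Atm, with adjusted p of 0.0991, 0.317 and 0.323. Mdm2 was then at -0.08 in treated B6 mice (adjusted p = 0.607) and at 0.10 in treated Irf1-/- over treated B6 mice (adjusted p = 0.603). Trp53 was at 0.03 in treated B6 mice (adjusted p = 0.902), and the difference between the responses was 0.29 (adjusted p = 0.406).

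Cdkn1a, the best known p53 target, was the most variable of the 7 genes. It was at 31.9, 34.0 and 43.5 CPM in untreated Irf1-/- mice and at 34.1, 23.9 and 24.96 CPM in control set 2. The groups overlapped, as 1 library of control set 2 lay within the range of the Irf1-/- libraries. The difference was 0.40 ± 0.15, an FC of 1.32 with a 95% interval of 1.05 to 1.67 (unadjusted p = 0.0244, adjusted p = 0.376). Against control set 1, at 36.4, 32.6 and 37.5 CPM, the value was 0.04 (adjusted p = 0.899). Control set 2 was below control set 1 by about as much as it was below the mutants, at -0.36 ± 0.13 (unadjusted p = 0.0219, adjusted p = 0.202). Without its high library the value between the control sets was -0.54 (adjusted p = 0.029).

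No difference in Cdkn1a with treatment passed the test at D26. B6 mice had 31.8, 26.9 and 35.0 CPM, within or below control set 1 (-0.17 ± 0.11, adjusted p = 0.335) and within or above control set 2 (0.19). With the GC correction the value against control set 1 was -0.31 (adjusted p = 0.177). Treated Irf1-/- mice had 31.6, 29.8 and 44.3 CPM, overlapping the untreated ones (-0.05 ± 0.17, 95% interval -0.42 to 0.33). Without the highest treated library this value was -0.25 (adjusted p = 0.337). As FC, the 95% intervals were 0.742 to 1.06 in B6 mice and 0.745 to 1.26 in Irf1-/- mice, and each library held 537 to 992 reads of the gene.

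Ccng1 was at 120.0, 114.5 and 130.2 CPM in control set 1, at 117.7, 119.2 and 118.7 CPM in control set 2 and at 111.8, 118.8 and 116.4 CPM in untreated Irf1-/- mice. Treated B6 mice had 99.1, 108.0 and 83.3 CPM, below all of these, and treated Irf1-/- mice had 122.5, 113.6 and 102.6 CPM. Between treated B6 mice and control set 1, libraries lay entirely to 1 side in 34.5% of all genes. The value in B6 mice was -0.32 ± 0.10, an FC of 0.801 (unadjusted p = 0.0131, adjusted p = 0.0835), and that in Irf1-/- mice was -0.03 ± 0.08. The difference between the responses was 0.29 ± 0.14 (unadjusted p = 0.049, adjusted p = 0.293). At 40.8% GC, the Ccng1 transcript is lower in GC than all but 8.23% of genes. With the GC correction the value in B6 mice was -0.06 (adjusted p = 0.698) and the difference between the responses 0.07. Within the 12 libraries other than treated B6 mice, Pearson's r between log2 CPM of Ccng1 and the slope was -0.62 (Spearman's rho -0.41), as a description of libraries that share groups and processing. For Mdm2 r was -0.61 and for Trp53 0.52, in genes of 46.2% and 53.3% GC.

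**Figure D3:**
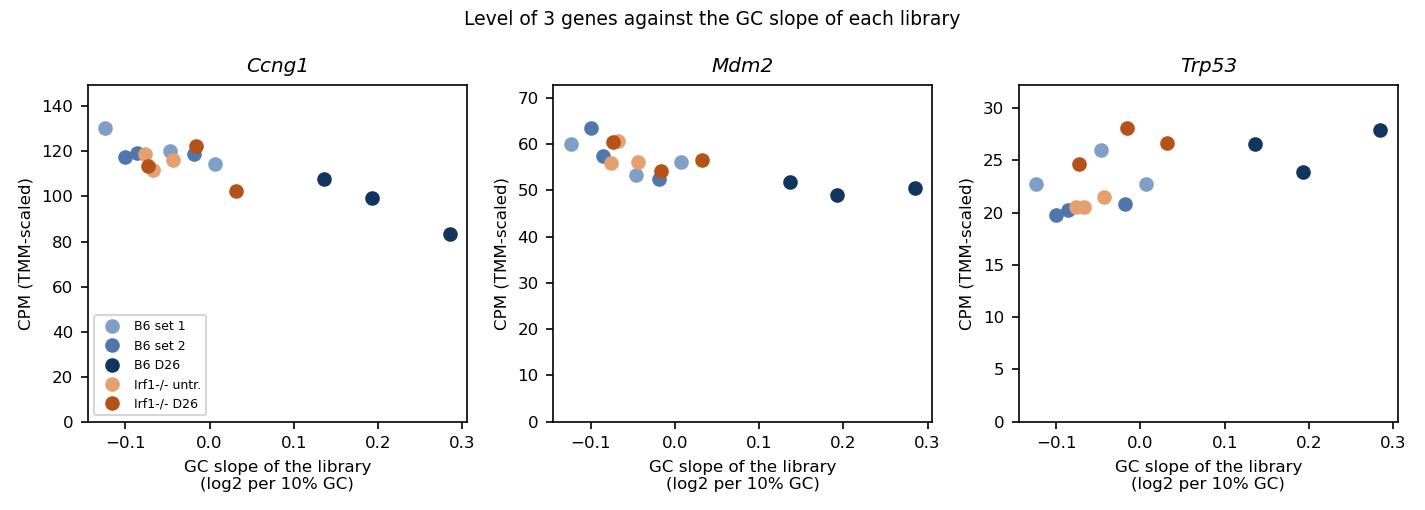
CPM of Ccng1, Mdm2 and Trp53 (vertical axes, from 0) against the slope of each library's log2 counts on GC content (horizontal axis, log2 per 10% GC), 1 point per library, coloured by group. The 3 treated B6 libraries have slopes of 0.136 to 0.285, apart from the other 12, and the lowest Ccng1 levels but for 1 treated Irf1-/- library.

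Bax was at 20.9, 23.6 and 21.6 CPM in control set 1, at 20.2, 22.6 and 23.3 in control set 2, and at 22.7, 22.9 and 24.0 in untreated Irf1-/- mice. It was at 21.8, 21.1 and 20.2 CPM in treated B6 mice and at 22.1, 17.4 and 21.8 CPM in treated Irf1-/- mice. The latter lay below the untreated mutants without overlap, with or without their lowest library, as in 25.1% of all genes in either direction. The value was -0.18 ± 0.11 (adjusted p = 0.425), or -0.08 without the lowest library. In B6 mice the value was -0.06 ± 0.10. Bax has the most GC-rich transcript of the 7 genes (63.5%), and with the GC correction it was at -0.30 (adjusted p = 0.166) in B6 mice, moving opposite to Ccng1.

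Of 26 other p53 targets, 0 were called in any comparison by edgeR's quasi-likelihood test or limma voom, and DESeq2 and edgeR's exact test called 1, Pmaip1, lower in control set 2 than in control set 1. By the quasi-likelihood test 4, 3 and 2 had an unadjusted p under 0.05 in treated B6 mice, treated Irf1-/- mice and between untreated genotypes. Over all genes the shares under this limit were 29.5%, 18.6% and 10.4%. The list medians were 0.04, 0.03 and 0.01, against 0.01, 0.01 and 0.00 for all genes. In treated B6 mice Pmaip1 (Noxa, a BH3-only protein) was at 26.0 ± 1.92 CPM against 34.9 ± 5.35 CPM, with a value of -0.42 (adjusted p = 0.0661). Its direction depended on the control mice: control set 2 was at 22.3 ± 4.66 CPM, and against it the value was 0.24 (adjusted p = 0.297). Rrm2b, a ribonucleotide reductase subunit that supplies nucleotides for repair, and Trp53inp1 followed with -0.47 and -0.45, and both have GC-poor transcripts (39.4% and 38.8%). With the GC correction these 3 values were -0.21, -0.16 and -0.12. In treated Irf1-/- mice the smallest p was that of Tnfrsf10b, a death receptor, at 123 ± 13.6 CPM against 150 ± 1.43 CPM (-0.28, adjusted p = 0.114). Trp53inp1 came next and was lower there too, at 136 ± 18.6 CPM against 167 ± 11.6 CPM (-0.29, adjusted p = 0.182). Bbc3 (Puma) was at 6.88 ± 1.37 CPM against 5.06 ± 0.328 CPM (0.45, adjusted p = 0.226). Between untreated genotypes Plk2, a kinase induced by p53, was at 38.4 ± 3.94 CPM in Irf1-/- mice and 28.1 ± 2.14 CPM in control set 2 (0.45 ± 0.09, adjusted p = 0.0528), and the value against control set 1 was 0.39 (adjusted p = 0.0832). Plk3, a related kinase, had the widest value in this list, at -0.83 ± 0.28 (adjusted p = 0.287). It was at 24.0 ± 4.68 CPM in Irf1-/- mice against 42.6 ± 18.4 CPM in control set 2, whose libraries were widely spread.

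**Figure D4:**
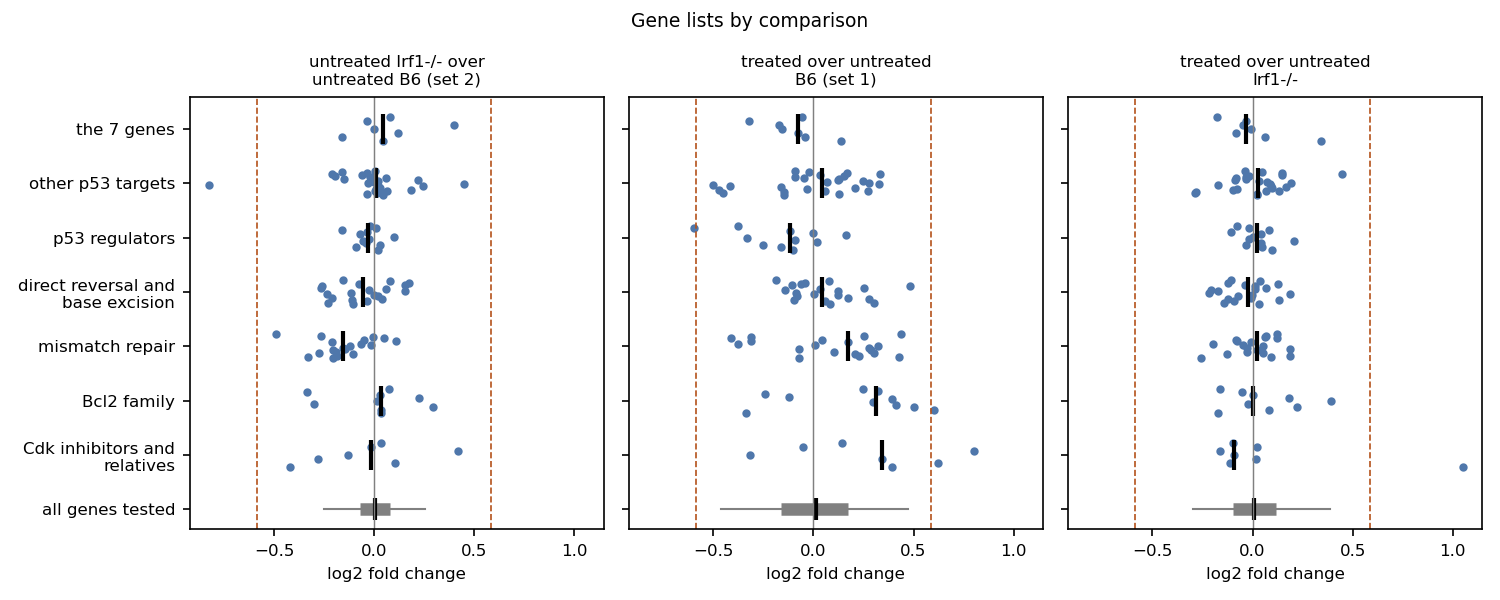
log2 fold change (horizontal axis) of each tested gene in 6 hand-written lists and of the 7 genes, in 3 comparisons, with the list median as a black bar and dashed lines at 1.5-fold either way. For all genes tested the thick bar spans the middle 50% of genes and the thin line the middle 90%. The lists lie around 0 in treated Irf1-/- mice, with Trp63 the furthest point at 1.05.

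In the Bcl2 family 0 genes were called by edgeR's quasi-likelihood test. Bak1, which like Bax forms pores in mitochondria, was at 50.3 ± 5.82 CPM in treated Irf1-/- mice and 77.1 ± 8.74 CPM in treated B6 mice (-0.63 ± 0.12, adjusted p = 0.0344), past the fold threshold. Before treatment it was at 52.2 ± 2.37 CPM in Irf1-/- mice and 65.8 ± 4.93 CPM in control set 2 (-0.33, adjusted p = 0.071). Bid, the BH3-only protein that activates Bax and Bak1, was at 11.1 ± 1.46 CPM against 18.0 ± 2.46 CPM between treated genotypes (-0.71 ± 0.15, adjusted p = 0.0545). DESeq2 and edgeR's exact test called both lower, and limma voom called neither. With the GC correction Bak1 was at -0.48 and Bid at -0.65, with adjusted p of 0.105 and 0.111. Between treated genotypes 1 of 11 epithelial markers had a positive value, and the median of the 11 was -0.24. At an unadjusted p under 0.05, 6 of these markers were lower in Irf1-/- mice (22% of all genes in either direction). Their part in the Bak1 and Bid values was not tested. In treated B6 mice 6 of 10 family members had an unadjusted p under 0.05 with positive values and 1 with a negative one (29.5% of all genes in either direction), and the median was 0.31 against 0.01 for all genes. Bok had the widest of these, at 28.9 ± 5.53 CPM against 19.1 ± 5.02 CPM (0.60, adjusted p = 0.0934). Among 7 Cdk inhibitors and relatives of the 7 genes, 0 were called by any of the 4 tools. Cdkn2d and Cdkn1c were at 0.62 and 0.80 in treated B6 mice (adjusted p = 0.0554 and 0.0625). With the GC correction Bok, Cdkn2d and Cdkn1c were at 0.40, 0.47 and 0.60, with adjusted p of 0.317, 0.196 and 0.174. The p53 relative Trp63, a marker of squamous and basal epithelia, was at 15.4 ± 5.92 CPM in treated against 7.43 ± 2.48 CPM in untreated Irf1-/- mice (1.05 ± 0.33, adjusted p = 0.133).

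Over the 91 list genes tested, each counted once, 6, 28 and 9 had an unadjusted p under 0.05 between untreated genotypes, in treated B6 mice and in treated Irf1-/- mice. These are shares to be read against 10.4%, 29.5% and 18.6% of all genes.

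By the pattern over the 15 libraries, which share groups and the GC slope of treated B6 mice, the genes most like Ccng1 were Ythdc1 and Esf1 (Pearson's r of log2 CPM 0.98 and 0.96 among 12369 genes), with GC contents of 37.6% and 39.0%. Those most like Trp53 were Tbc1d1 and Cdc42ep1 (0.92 each), and those most like Mdm2 were Mob4 and Rc3h1 (0.90 each). Cdkn1a was most like Brpf3 (0.89) and Rab3gap2 (0.84), Msh6 like Elf3 (0.88) and Ctss (0.86), Bax like Bud31 (0.84) and Wdr74 (0.83), and Mpg like Parp2 (0.79) and Trnau1ap (0.77). Between the 7 genes themselves r ran from -0.51 (Trp53 and Mdm2) to 0.53 (Mdm2 and Ccng1). None of the p53 targets Mdm2, Cdkn1a, Ccng1 and Bax was among the 2 likest genes of another. With only 2 of 12369 genes kept for each, this cannot show whether they share a pattern.

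Some facts of the series bear on all of these values. Libraries held 22266607 to 22869853 counted reads on genes, and counts of a gene among the 7 were 244 to 2935 per library. Irf1 counts were 1786 to 2769 in the 6 Irf1-/- libraries and 2882 to 5188 in the 9 B6 libraries, so the targeted transcript was lower in every mutant and not absent. Epithelial markers (11 of 11 with a row) summed to 11555 to 17932 CPM and smooth muscle markers (7 of 7) to 7179 to 9277 CPM, so the tissue was colon wall with both layers. Xist, the transcript of the inactive X chromosome, was at 134 to 573 counts in 3 of the 6 treated libraries, 2 of them B6, and at 7288 to 83932 in the other 12. Without these 3 libraries Ccng1 in treated B6 mice was at -0.53, with 1 treated library left and assumed to vary like the others. That library had the steepest GC slope of all, 0.285, and the lowest Ccng1 level, 83.3 CPM. Trp53 in treated Irf1-/- mice was then at 0.30 (adjusted p = 0.117, edgeR's quasi-likelihood test). Msh6 between treated genotypes was at -0.05, again with 1 treated B6 library.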

How the data were processed

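Distal colons of 15 mice were profiled by RNA-seq. The authors deposited raw read counts per gene in 3 tables, without normalization, and the submitters' processing notes name TopHat2 2.0.9, Bowtie 1.0.0, featureCounts, edgeR and build mm9, with no role given. The authors kept genes with 5 CPM or more in at least 3 libraries. Columns deposited by the authors with CPM, log2 CPM and log2 fold changes, with p-values of their group comparisons, and with scores (tagwise dispersion and direction of call) were not used. The untreated Irf1-/- counts stand in 2 tables, are identical, and were used once per comparison.

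Counts were scaled by TMM and fitted with edgeR 4.0.16 quasi-likelihood models (R 4.3.3) on all genes shared by the tables of a comparison. Fits were of 3 libraries against 3, and of 12 libraries for the difference between the responses. Thresholds were a fold change of 1.5 and an adjusted p of 0.01. Errors beside log2 FC are standard errors. log2 CPM for patterns used a prior count of 2. Alternatives were RLE size factors, DESeq2 1.42.0, edgeR's exact test, limma 3.58.1 voom, 1 fit of all 15 libraries, a block for the replicate number, omission of each library, a filter of 10 CPM in 3 libraries, an adjusted p under 0.05, and the other or both control sets. Added after seeing the data were a lowess correction on GC content (span 0.3), this with the block, log2 Xist as a covariate, and leaving out 3 libraries. The code was tested on simulated data.

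The genes and lists were chosen with earlier results of these data known. Named besides the 7 genes were, per list and comparison, called genes and up to 3 with the smallest p, and for each gene the 2 with the highest Pearson r. GC content and length came from GENCODE M21 and promoter windows from RefSeq (GRCm38.p6), whose build differs from that of the reads. No coordinates are in the tables. The libraries are 1 per mouse, so p-values measure the spread between mice. 1 gene of the 8 was not analysed here. Summaries and plots were made in Python 3.11.15 (pandas 2.3.3, matplotlib 3.10.9).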

Additional observations from a re-analysis of the deposited data

How the results depend on the processing

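No alternative brought any of the 7 genes past the thresholds: the number called was 0 in each of 117 recounts, including an adjusted p under 0.05 at 1.5-fold. Of 777 recomputed log2 values, 67 had the other sign, all of values not called, and 9 had an adjusted p under 0.05. These 9 were Ccng1 in treated B6 mice (5), Trp53 in treated Irf1-/- mice (2) and in treated B6 mice against control set 2 (1), and Cdkn1a between the control sets (1). The cause was not tested.

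The same-numbered libraries of different groups were not treated as paired. Correlations of their deviations lay between -0.25 and 0.248, which by themselves cannot show whether they were. With the replicate number as a block, 0 of the 7 genes were called, as without it, so the block changed no call of theirs.

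Over all genes the counts called depended far more on the test. They went from 51 to between 41 and 134 for untreated genotypes, from 6 to between 0 and 460 for treated B6 mice, from 32 to between 13 and 249 for treated Irf1-/- mice, from 2 to between 0 and 75 for the difference, from 48 to between 7 and 270 for treated genotypes, and from 8 to between 5 and 162 for the control sets. The upper values came from DESeq2, edgeR's exact test or the other control set. With each library left out the counts were 26 to 64, 0 to 152, 0 to 61, 1 to 9, 17 to 48 and 3 to 53.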
